A study of Schizosaccharomyces pombe with 6 samples.

Results

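The 3 centromeres of *S. pombe* and the 100 kb of chromosome on each side of them held 832 of the 16515 peaks in 4 ChIP-seq peak lists, 2 for Hap2 and 2 for Arp5. A peak was counted to a centromere span where at least 1 bp of it lay within chromosome I 3759698 to 3782575, II 1608484 to 1639398 or III 1077328 to 1133266, and otherwise to the flank where it touched the 100 kb beyond a span end. The spans held 57 peaks and the flanks 775. The spans were 22.9, 30.9 and 55.9 kb long.

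All samples came from one strain, labelled Hap2-GFP Arp5-3HA, grown in the rich medium YES. The study's strain list gives both tags, with the markers KAN for *hap2* and NAT for *arp5*, and lists no other allele. No mutant was among the samples. Antibodies against GFP and HA pulled down Hap2-GFP and Arp5-3HA, each in 2 replicates. No untagged control was analysed, and the 2 input samples were not used here. Nothing in the labels says that the replicates were separate cultures, so p-values measure only the spread between lists, which may be technical.

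Hap2-GFP replicates 1 and 2 had 198 and 213 peaks in the spans and flanks, of 3764 and 4267 in all. Arp5-3HA replicates 1 and 2 had 212 and 209, of 4207 and 4277. In the spans these lists had 17, 13, 13 and 14 peaks in that order, which is used below wherever 4 values stand together. The lists give a score for each peak and hold no read counts, which leaves the sequencing depth unknown. Scores were used only as percentiles within a list, where 100 is the highest peak.

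Arp5 belongs to the Ino80 complex, a chromatin remodeler that slides nucleosomes and exchanges histones, and Hap2 is a small protein that associates with that complex. A fission yeast centromere has a central core flanked by an inverted pair of inner repeats and then by outer repeats. The core and part of the inner repeats are assembled in chromatin with the centromeric histone CENP-A (Cnp1), on which the kinetochore forms. The outer repeats, which include the *dg* elements, are packed in heterochromatin marked by methylation of histone H3 lysine 9. Genes for transfer RNAs, transcribed by RNA polymerase III, lie within the inner repeats and beyond the outer repeats, and some are known to act as barriers between the domains.

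The reference annotation does not name these domains, so they were found by aligning the ASM294v3 sequence with itself. The inner repeat pairs were 99.7, 99.8 and 99.9% identical at centromeres I, II and III. Between them lay cores of 4.12, 6.80 and 4.85 kb. The outer repeats ran past the span ends by 3.64 to 7.10 kb, since each span end lies at the outermost copy of the *dg* amplicon of the study's ChIP primers. The cores held the amplicons that the study calls *cc1*, *cc1/3* and *cc2*, and the spans held no coding gene, so the sequence fits the label of the spans. Of all 50-base words, those that occur once in the reference made up 1.64% of positions in the outer repeats of the spans, 2.13% in the inner repeats, 61.9% in the cores and 92.3% in the flanks. How reads that align to several places were treated is not given in the sources used here, and reads from identical copies cannot be told apart.

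The sequences below carry the main contrasts of the spans. SPCTRNAGLU.10 is a glutamate tRNA gene and lies in the core of centromere III (minus strand, chrIII:1097499-1097570), at the one span peak site with any unique 50-base word. SPATRNAILE.04 is an isoleucine tRNA gene of the right inner repeat of centromere I (minus strand, chrI:3773910-3773983) whose identical left copy, SPATRNAILE.03, had no peak in any list. Reads of such copies cannot be told apart, so this contrast shows where peaks were called and not which copy was bound. SPCTRNAARG.12 is an arginine tRNA gene of the left inner repeat of centromere III (minus strand, chrIII:1092595-1092667), under the span site with the highest Hap2 rank. The shared core element (plus strand, chrI:3770821-3770970) lies under peaks with no tRNA gene in the cores of I and III. The outer repeat element (plus strand, chrIII:1121471-1121680) lies under the one peak in an outer repeat of a span. Capitals mark GGTTCGA followed by any base and TCC, a form of the B box that the RNA polymerase III factor TFIIIC binds inside tRNA genes. All are from the RefSeq ASM294v3 sequence, written 5′ to 3′.
SPCTRNAGLU.10: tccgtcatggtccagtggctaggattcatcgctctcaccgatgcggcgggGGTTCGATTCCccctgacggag
SPATRNAILE.04: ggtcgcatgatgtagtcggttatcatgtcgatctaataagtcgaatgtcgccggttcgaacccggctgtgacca
SPCTRNAARG.12: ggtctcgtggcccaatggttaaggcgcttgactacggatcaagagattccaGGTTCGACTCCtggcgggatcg
shared core element: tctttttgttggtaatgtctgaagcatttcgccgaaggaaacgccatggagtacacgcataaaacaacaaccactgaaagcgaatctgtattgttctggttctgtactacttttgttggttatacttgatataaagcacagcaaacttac
outer repeat element: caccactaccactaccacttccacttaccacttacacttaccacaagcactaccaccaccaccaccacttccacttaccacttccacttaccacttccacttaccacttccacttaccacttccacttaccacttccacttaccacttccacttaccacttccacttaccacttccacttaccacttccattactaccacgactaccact

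These letters, searched for on the annotated strand of each gene, were in 80 of the 171 nuclear tRNA genes of the 3 chromosomes (46.8%). In the spans 9 of 23 held them and in the flanks 14 of 37. The flank gene SPBTRNAASP.05 was counted as without them, though they are on its opposite strand, which reads like SPCTRNAASP.05. Searched for on both strands, the letters were in 7 of the 14 span sites over a tRNA gene and in 0 of the 4 other span sites. They were in 0.283% of all 400 bp windows, a length that differs from that of the sites. Since the motif is part of tRNA genes, the contrast between these sites and windows was set in advance. No other motif was searched. The 23 span genes had only 8 different sequences, and the glutamate sequence above occurs 6 times in the genome.

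Overlapping peaks of the 4 lists were joined into sites. Of the 18 sites in the spans, 6 lay in left and 8 in right inner repeats, 3 in the cores and 1 in an outer repeat. In the inner repeats 13.8 and 11.1% of bases were under Hap2-GFP peaks and 10.6 and 10.7% under Arp5-3HA peaks. In the cores the shares were 3.42 and 1.65% for Hap2 and 3.36 and 1.78% for Arp5. In the outer repeats of the spans they were 0, 0, 0 and 0.333%.

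Over the spans together, 4.37 and 3.35% of bases were under Hap2 peaks, and 3.45% in both Arp5 lists. The Hap2 lists lay above and below the Arp5 lists. The Hap2 mean was 3.86% ± 0.715 (SD, n = 2) and the Arp5 mean 3.45%, a difference of 0.41 percentage points that did not exceed the spread between replicates (exact permutation test over the 4 lists, two-sided p = 1). With 2 lists against 2 this test cannot give a p below 0.333. The sign of the difference turned when Hap2-GFP replicate 1 was left out (-0.10).

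Pooled over the 3 centromeres, the flanks were covered much like the rest of the chromosomes, and more than the spans in every list. The flanks of single centromeres differed from this level, from 5.42% (Hap2-GFP replicate 1 at III) to 18.2% (Hap2-GFP replicate 1 at II). In the flanks 11.5 and 11.96% of bases were under Hap2 peaks and 11.3 and 11.2% under Arp5 peaks, against 11.0, 12.1, 11.5 and 11.9% on the rest of chromosomes I, II and III. The span minus flank difference was -7.85 percentage points for Hap2 (n = 2 lists) and -7.78 for Arp5 (n = 2). In an exact sign-flip permutation test over 2 lists the two-sided p was 0.5 for each protein, the smallest that 2 lists allow. Unique 50-base words made up 10.4% of span positions and 92.3% of flank positions. Over unique positions alone the differences were -10.1 and -9.90 percentage points. Unique span positions lie mostly in the cores, where they make up 61.9%, against 2.13% in the inner and 1.64% in the outer repeats. Those differences therefore mainly set the cores against the flanks and say little of the repeats.

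**Figure D1:**
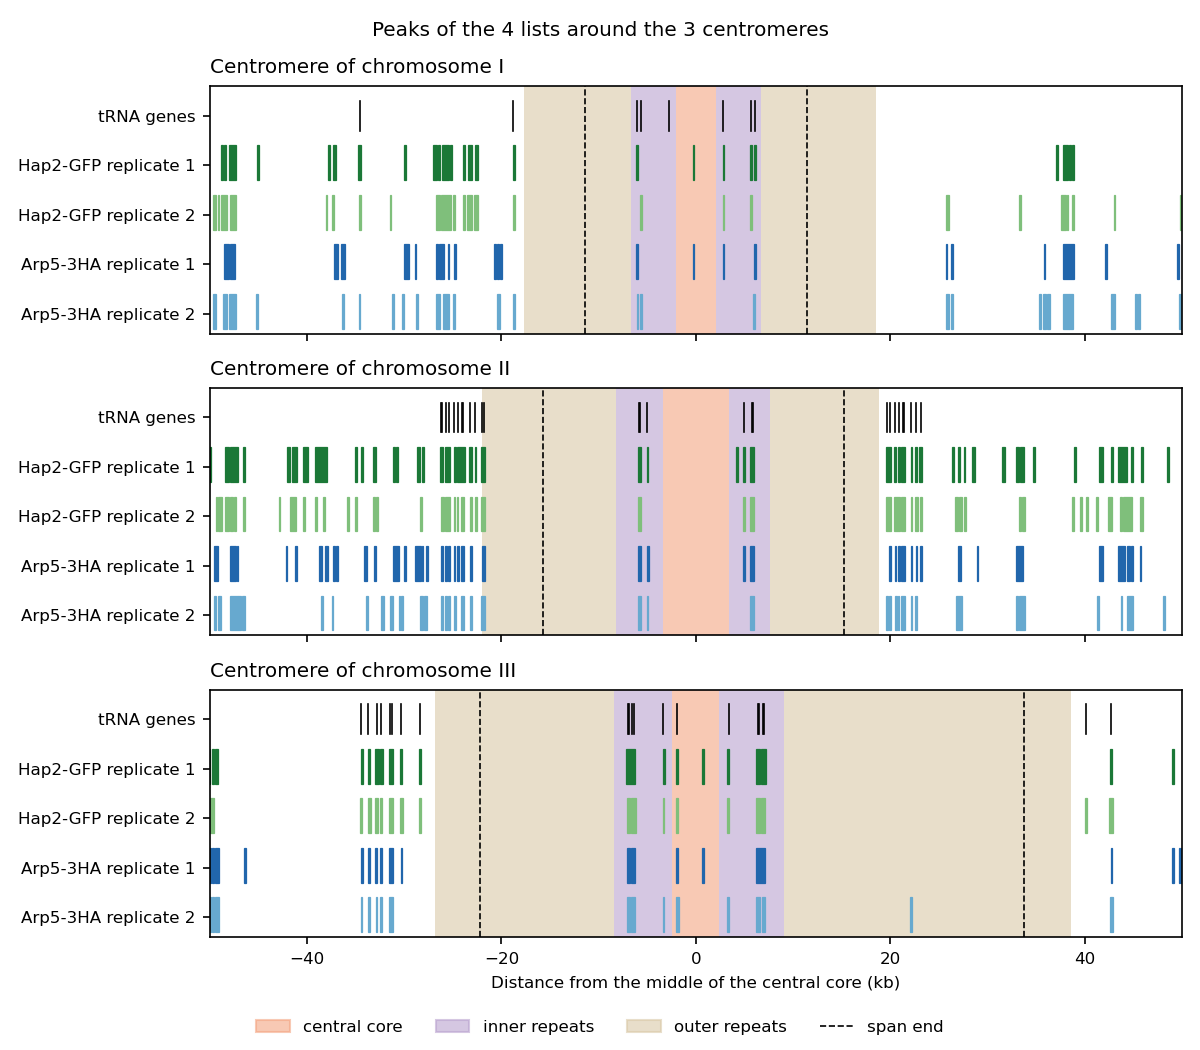
Peaks of the 4 lists (coloured bars) and tRNA genes (black bars) against the distance in kb from the middle of the central core, for each of the 3 centromeres, with the core, inner repeats and outer repeats shaded and the span ends dashed. Peaks of the 4 lists gather at the tRNA genes of the inner repeats and beyond the outer repeats, the core of centromere II has none, and 1 peak lies in the outer repeats of a span.

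Within the spans the peaks followed the tRNA genes. Of the 18 sites, 14 lay over a tRNA gene. The 5 sites with a peak in all 4 lists were all over tRNA genes. Of the bases under span peaks, 89.4 and 100% for Hap2 and 89.97 and 94.5% for Arp5 were under peaks over a tRNA gene.

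Over a tRNA gene lay 14 of 17 and 13 of 13 Hap2 span peaks and 11 of 13 and 13 of 14 Arp5 span peaks. In the flanks the share of peaks over a tRNA gene was 15.5, 14.5, 12.6 and 12.8%, and on the rest of the chromosomes 2.98, 2.60, 2.18 and 2.36%. The spans hold 23 tRNA genes and no coding gene, the flanks 37 and 247, and the rest 111 and 4866. These shares of peaks do not allow for that gene content. The median score percentile of span peaks was 69.6, 74.3, 77.0 and 73.0, all above the middle of their lists, and the lowest was 17.3, 26.4, 3.70 and 6.89. These values rank span peaks, mostly over tRNA genes, among peaks of all kinds and not among other tRNA peaks. Of the 18 span sites, 17 had no unique 50-base word.

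Of the 23 tRNA genes of the spans, 21 and 19 lay under a Hap2 peak (97.7 and 96.5% of all 171 tRNA genes) and 18 and 19 under an Arp5 peak (81.3 and 86.5%). A reproducible region, in which peaks of both replicates of a protein overlap by at least 1 bp, covered 18 of 23 for Hap2 (78.3%, 95% Wilson interval 58.1 to 90.3) against 95.3% of all tRNA genes. For Arp5 it covered 16 of 23 (69.6%, 49.1 to 84.4) against 74.9%. The intervals cover counting error only and treat the genes as independent, while most are copies of each other. A peak in all 4 lists lay over 13 of the 23 genes (56.5%), against 71.9% of all tRNA genes.

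In the flanks, 36 of 37 tRNA genes lay under a Hap2 region (97.3%, 86.2 to 99.5) and 27 under an Arp5 region (73.0%, 57.0 to 84.6). These shares lie near those of the 111 tRNA genes elsewhere, where the counts were 109 for Hap2 and 85 for Arp5. The Hap2 share was lower in the spans than in the flanks, a difference that was not tested.

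Centromere III had the most regular pattern. Its left inner repeat holds genes for aspartate (SPCTRNAASP.06), arginine (SPCTRNAARG.12), valine (SPCTRNAVAL.09) and threonine (SPCTRNATHR.08) tRNAs, all under one site at 1092321 to 1093290 with peaks in all 4 lists. The highest peak there was at the 91.2 and 88.0 percentile in the Hap2 lists and the 86.3 and 91.1 percentile in the Arp5 lists. The mirror copies on the right, SPCTRNATHR.09, SPCTRNAVAL.10, SPCTRNAARG.13 and SPCTRNAASP.07, lay under a site at 1105731 to 1106660 with percentiles of 88.9, 85.7, 86.3 and 91.1. Both sites stood in the top 15% of every list.

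The leucine genes SPCTRNALEU.12 and SPCTRNALEU.13, nearer to the core of III, had peaks in both Hap2 lists and in Arp5-3HA replicate 2, and none in Arp5-3HA replicate 1. Their percentiles were 69.6, 36.3 and 57.7 on the left and 78.8, 26.4 and 6.89 on the right. Only the Hap2 peaks there made reproducible regions.

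At centromere II, the isoleucine and alanine genes SPBTRNAILE.06 and SPBTRNAALA.09 shared one site at 1618231 to 1618610, with peaks at the 77.2, 74.3, 81.5 and 73.0 percentile. Their mirror copies SPBTRNAALA.10 and SPBTRNAILE.07, at 1629801 to 1630200, had peaks at the 66.95, 84.8, 79.3 and 80.0 percentile. The valine genes were less regular. SPBTRNAVAL.06 lacked a peak in Hap2-GFP replicate 2, and SPBTRNAVAL.07 lacked one in Arp5-3HA replicate 2.

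The span of centromere I had no tRNA gene with a peak in all 4 lists. The alanine genes SPATRNAALA.04 and SPATRNAALA.05 had peaks in Hap2-GFP replicate 1 and in both Arp5 lists, so Arp5 made a reproducible region there and Hap2 did not. The glutamate gene SPATRNAGLU.03 had peaks in the replicate 2 lists of both proteins, and SPATRNAGLU.04 in both Hap2 lists. SPATRNAILE.04 had peaks at the 17.3 and 72.2 percentile in the Hap2 lists and at 7.89 in Arp5-3HA replicate 1. Its left twin SPATRNAILE.03, of identical sequence, was the one tRNA gene of the spans and flanks with no peak in any list.

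Of the 23 span genes, 22 form 11 inverted pairs of identical sequence. Over 11 pairs and 4 lists, both copies had a peak in 33 of 44 cases, one copy in 7 and neither in 4. The one-copy cases numbered 5 at centromere I, 2 at II and 0 at III. Since the copies have the same sequence, a peak on one cannot be told apart from reads of the other.

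The gene without a partner in its own centromere, SPCTRNAGLU.10, stood out by position. It lies inside the core of III, and 90% of positions in its site (1097431 to 1097710) were unique. It had peaks in all 4 lists, at the 91.2 and 55.1 percentile for Hap2 and the 98.2 and 65.8 percentile for Arp5. In both proteins the replicate 1 peak ranked higher, by over 30 percentile points.

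**Figure D2:**
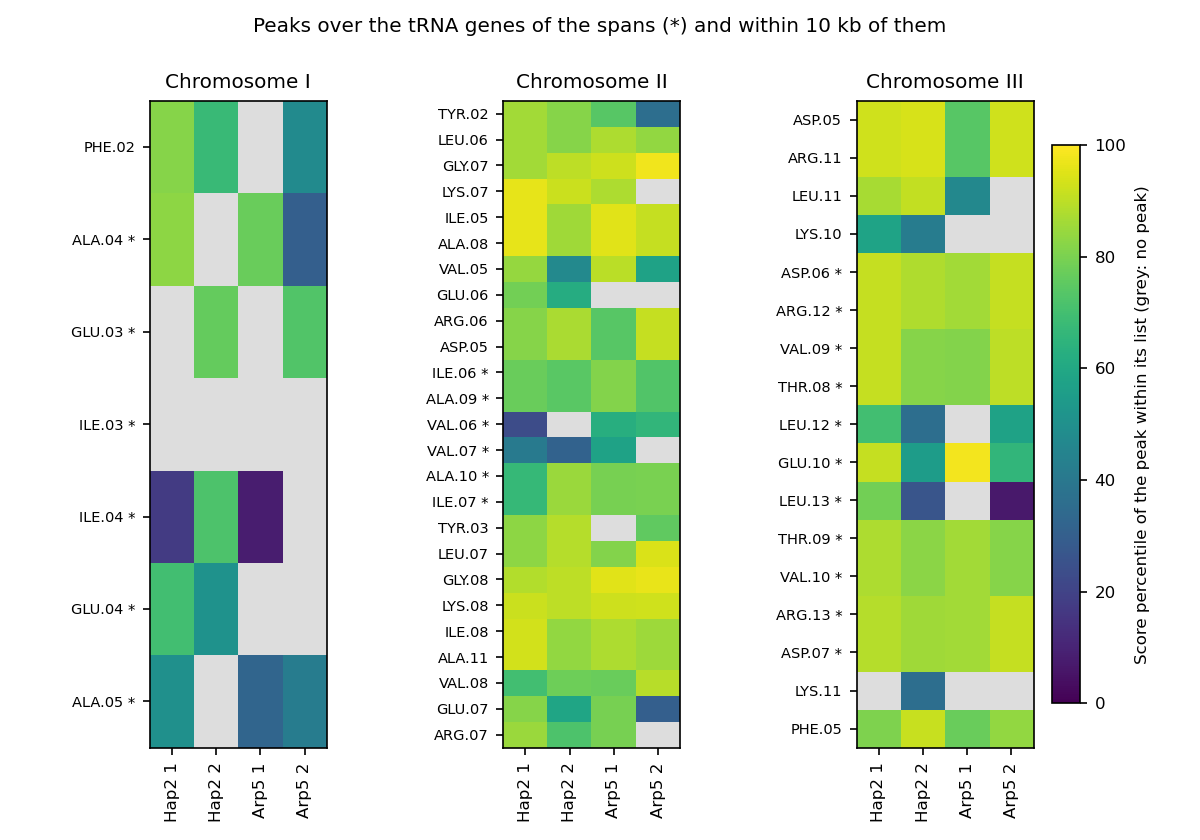
Score percentile within its list of the highest peak over each tRNA gene of the spans (marked *) and of the 10 kb beyond them, by chromosome and in order along it, with grey where no peak was called. The span genes of III and the arrays beside II are filled in nearly every list, whereas each span gene of I is grey in at least 1 list.

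The cores held 3 sites, of which 2 had no tRNA gene. One lay at I 3770801 to 3770980 and the other at III 1100091 to 1100330, and both are parts of the same stretch of sequence. The shared core element shown above, taken from I 3770821 to 3770970, recurs at III 1100205 to 1100354 on the same strand, with no other identical copy. The site of I had a peak in Hap2-GFP replicate 1 (50.1 percentile) and in Arp5-3HA replicate 1 (3.70), and that of III in the same lists (29.3 and 3.70). Neither site had a peak in a replicate 2 list, so no reproducible region formed there.

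No peak of any list lay in the 6.80 kb core of centromere II, where 100% of positions were unique. The amplicons *cc2-a*, *cc2-b* and *cc2-c* lie in that core. The *cc1* amplicon, also unique, the *cc1/3* amplicon with its copies in I and III, and the 10 *dg* copies also had no peak in any list. The study reported Hap2-GFP at *cc2* and *dg* by ChIP with quantitative PCR, a measure unlike a called peak. Absence of a called peak does not measure how much of a protein was there.

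The other 2 span sites without a tRNA gene were each in 1 list. At II 1628371 to 1628540, in the right inner repeat, Hap2-GFP replicate 1 had a peak at the 54.1 percentile, and the identical copy at 1619875 to 1620044 had none. The outer repeat element at III 1121471 to 1121680, a run of short related repeats with 47.6% G and C, had a peak in Arp5-3HA replicate 2 at the 83.9 percentile. It has 4 identical copies in centromere III, of which 1 had the peak.

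Noncoding RNA genes of the spans, most of them transcripts of the outer repeats, rarely met a region. Of 86 lncRNA genes, 1 met a Hap2 region (1.16%, against 22.0% of all lncRNA genes) and 1 an Arp5 region (1.16%, against 16.3%). Of the 86, 31 lay in left and 39 in right outer repeats, where 1.64% of positions were unique. How reads with several alignments were handled is not given, so these low shares do not show that the proteins were absent. SPNCRNA.396 met the Hap2 region over SPATRNAGLU.04, and SPNCRNA.367 met the edge of the Arp5 region over SPBTRNAVAL.06. In the flanks 77 and 71 of 354 lncRNA genes met a region of Hap2 and Arp5.

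By distance from the span ends, coverage was near 0 in the first 5 kb, peaked at 5 to 10 kb for Hap2 and lay near the level of the remaining chromosomes beyond. In the first 5 kb 1.67 and 1.63% of bases were under Hap2 peaks and 0.567 and 1.30% under Arp5 peaks. These bases lie largely in the outer repeats that run past the span ends, with 6.23% of positions unique. From 5 to 10 kb the shares were 16.8 and 16.96% for Hap2 and 14.1 and 12.5% for Arp5.

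The stretch from 5 to 10 kb holds 24 tRNA genes. Peaks over tRNA genes made up 100% of its covered bases in both Hap2 lists and 86.6 and 93.6% in the Arp5 lists. From 10 kb outward the pooled shares ranged from 8.80 to 14.3% over the 4 lists and 4 distance bins, around the level of the rest of the chromosomes. At single centromeres they ranged from 3.29% (Arp5-3HA replicate 2 at III, 10 to 25 kb) to 24.7% (Hap2-GFP replicate 1 at II, 25 to 50 kb). Centromere II alone, with 17 of the 24 tRNA genes, had 38.2, 35.8, 29.2 and 26.6% of the bases from 5 to 10 kb under peaks. At I the shares there were 1.8, 2, 5.7 and 3.9%, and at III 10.3, 13.1, 7.5 and 7.1%. The pooled Hap2 peak at this distance thus came mainly from II.

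**Figure D3:**
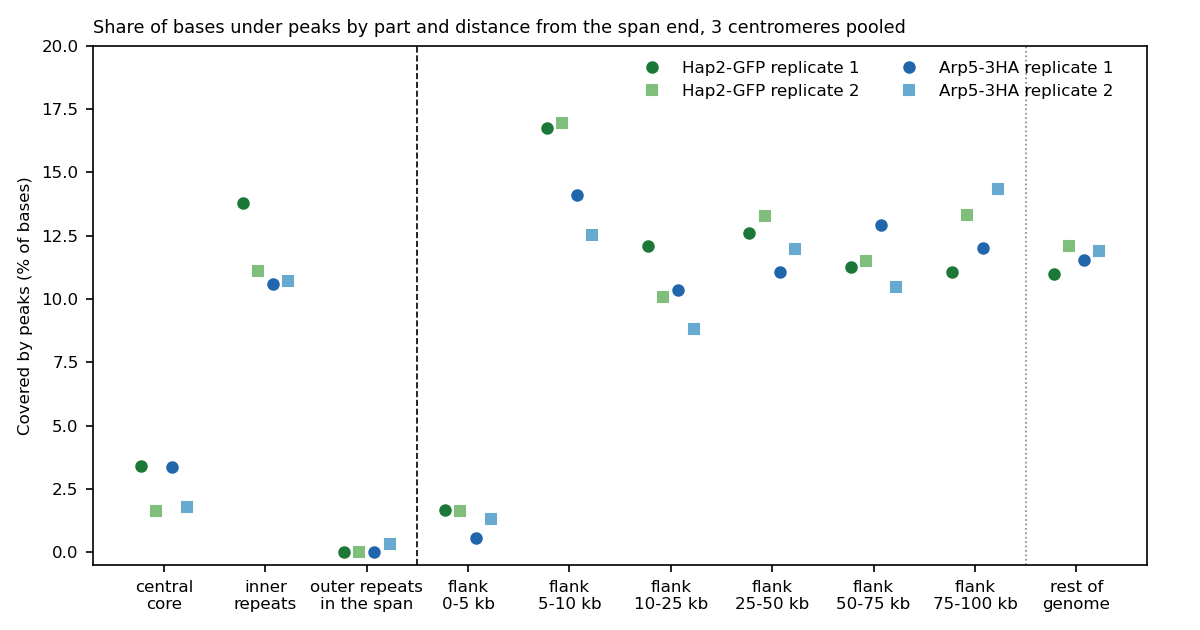
Share of bases under peaks (%) in each list by centromere part and by distance from the span end, pooled over the 3 centromeres, with the rest of chromosomes I, II and III at the right. The outer repeats of the spans lie at 0 to 0.333%, the inner repeats at 10.6 to 13.8% and the stretch from 5 to 10 kb at 12.5 to 16.96%.

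The first peak outside a span was over a tRNA gene in 19 of 24 cases, with 6 span ends in 4 lists. It lay 4.38 to 25.6 kb from the span end. On the left of I it was the peak over the phenylalanine gene SPATRNAPHE.02, at 7.21 kb, in 3 lists. On the right of I no tRNA gene lies in the flank, and the first peak was over *sdh1*, which encodes a subunit of succinate dehydrogenase, at 14.2 to 14.3 kb in 3 lists and at *cbs2* at 25.6 kb in Hap2-GFP replicate 1.

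Centromere II is bordered on both sides by arrays of tRNA genes, 19 of them within 10 kb of a span end. Hap2 regions lay over all 19, and Arp5 regions over 15. The glycine gene SPBTRNAGLY.08 had peaks at the 88.3, 90.2, 95.4 and 96.7 percentile, and SPBTRNAGLY.07 at 86.0, 90.2, 92.3 and 98.0. The glutamate gene SPBTRNAGLU.06 had peaks in both Hap2 lists, at 78.8 and 62.0, and none in an Arp5 list. Counts over the arrays lie near the shares over all tRNA genes given above (95.3% for Hap2 and 74.9% for Arp5).

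At centromere III tRNA genes on both sides carried peaks, and the 3 coding genes nearest to each span end did not. The left array reaches 12.2 kb from the span end, and its arginine gene SPCTRNAARG.11 had peaks at the 92.8, 93.9, 74.2 and 92.9 percentile. The lysine gene SPCTRNALYS.10, nearest to the centromere on that side, had peaks in the Hap2 lists only. On the right, SPCTRNALYS.11 had a peak in Hap2-GFP replicate 2 alone and SPCTRNAPHE.05 in all 4 lists, at the 80.5, 91.5, 77.0 and 83.9 percentile.

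Coding genes next to the centromeres differed by side. On the left of II the first was *rpb1*, which encodes the largest subunit of RNA polymerase II, 11.7 kb from the span end, with 5, 3, 6 and 6 peaks. Its Hap2 region lay at the gene start (1590981 to 1591280) and its 3 Arp5 regions in the gene body. Next on that side, *hmo1* had 2, 1, 1 and 1 peaks, with a region of each protein. The third gene there, *ngg1*, had 0, 1, 2 and 1 peaks and no region of either protein. On the left of I, *per1* had 3 and 1 Arp5 peaks and no Hap2 peak, and *rpl1002*, a gene for ribosomal protein L10, had regions of both proteins. The third gene there, *prm1*, had 1, 1, 2 and 3 peaks, with a region of Arp5 only.

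The first coding genes of III had no peak in any list. These were *chk1*, the DNA damage checkpoint kinase gene, *meu27* and *ubc11*, a ubiquitin conjugating enzyme gene, on the left, and *ppc1*, *cmc2* and *cbp3* on the right. On the left 6 coding genes lay before the first with an Arp5 region and 7 before the first with a Hap2 region. On the right these numbers were 6 and 9. Over all coding genes 28.2% met a Hap2 region and 31.5% an Arp5 region, so most coding genes anywhere had none. Whether these runs are longer than elsewhere was not tested, and *meu27* lies within the bounds of *chk1*. On the right of I *emc5* and the repair gene *rad50* had none either, and on the right of II *yox1* and the meiotic recombination gene *rec6* had none, while *dpm2* had a peak in Hap2-GFP replicate 1 alone.

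Over the 200 kb of flank at each centromere, II was covered most and III least. The Hap2 shares were 10.8 and 11.9% at I, 18.2 and 16.8% at II and 5.42 and 7.11% at III. The Arp5 shares were 9.92 and 10.8% at I, 15.1 and 13.9% at II and 8.84 and 8.96% at III. Both proteins thus had II above I and I above III, with no overlap between centromeres among lists of the same protein.

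Hap2 minus Arp5 was 3.02 percentage points at II and -2.64 at III, with no overlap of lists in either. At I it was 1.04, also without overlap. Each difference gave p = 0.333 in the exact permutation test (two-sided, 2 lists against 2), the smallest it allows. In the spans the lists of both proteins overlapped at all 3 centromeres (exact permutation p = 0.667 each).

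**Figure D4:**
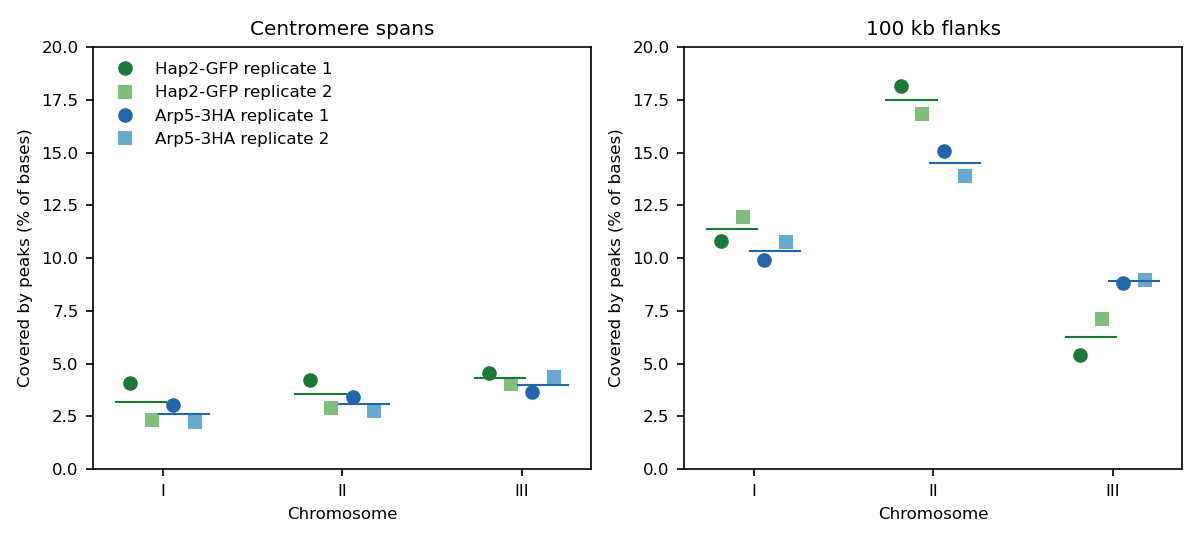
Share of bases under peaks (%) in the centromere spans and in the 100 kb flanks by chromosome, with a point for each list and a line at the mean of the 2 lists of a protein. In the flanks the Hap2 points lie above the Arp5 points at II (18.2 and 16.8% against 15.1 and 13.9%) and below them at III (5.42 and 7.11% against 8.84 and 8.96%).

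Reproducible regions numbered 11 for Hap2 and 9 for Arp5 in the spans, all over tRNA genes, and 109 and 114 in the flanks. In the flanks 59 Hap2 regions (54.1%) overlapped an Arp5 region, and 59 Arp5 regions (51.8%) a Hap2 region. In the spans 6 of 11 and 6 of 9 did. Another 33 Hap2 (30.3%) and 27 Arp5 regions (23.7%) of the flanks met no peak of the other protein. Over all of chromosomes I, II and III, 51.1% of 2198 Hap2 regions and 51.6% of 2033 Arp5 regions overlapped the other protein's, and 34.0 and 20.8% met none of its peaks, so the flank shares lie near these.

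The proteins differed in where on genes their flank regions were centred. Of the Hap2 regions 22 (20.2%) had their centre at a coding gene start, in a window reaching 500 bp upstream and 100 bp downstream, 42 (38.5%) elsewhere in a coding gene and 45 (41.3%) in neither, 26 of these over a tRNA gene. Of the Arp5 regions 3 (2.63%) were at such a start, 80 (70.2%) elsewhere in a coding gene and 31 (27.2%) in neither. Over all regions of the 3 chromosomes the shares at starts were 27.8% for Hap2 and 3.84% for Arp5, those elsewhere in a coding gene 49.3 and 85.8%, and those in neither 22.9 and 10.4%. The proteins thus stood in the same order as over all regions, and the share in neither was higher in the flanks for both. Of the 31 Arp5 regions in neither, 22 lay over a tRNA gene. Over all regions of the 3 chromosomes in neither, 115 of 504 for Hap2 and 96 of 211 for Arp5 lay over one. These differences from all regions were not tested.

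Of the 247 coding genes of the flanks, 59 met a Hap2 region (23.9%, against 28.2% of all coding genes) and 76 an Arp5 region (30.8%, against 31.5%). Both proteins had a region on 46. By centromere, Hap2 regions lay on 14 of 81 coding genes at I, 29 of 86 at II and 16 of 80 at III, and Arp5 regions on 18, 33 and 25. The flank shares lie near the share over all coding genes. At the start windows of coding genes, 39 of 243 flank genes met a Hap2 region (16.05%, against 19.7% of all) and 25 an Arp5 region (10.3%, against 7.78%).

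Other gene classes of the flanks were few. Of 5 long terminal repeats, remnants of retrotransposons, 1 met a Hap2 region and 0 an Arp5 region, against 24.8 and 0.840% of all. The 1 ribosomal RNA gene met regions of both proteins, against 95.7 and 76.6% of all. Of 4 genes for small nuclear or nucleolar RNAs, 1 met a Hap2 region (against 45.8%) and 2 an Arp5 region (against 51.4%).

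The 10 highest flank regions of each protein included those over *fba1*, *pyk1* and *pma1*. Over *fba1*, which encodes the glycolytic enzyme aldolase (II, 1687991 to 1690210 for Hap2), the peaks stood at the 98.3, 99.6, 99.3 and 99.4 percentile. Over *pyk1*, which encodes pyruvate kinase (I, 3844231 to 3846590), they stood at 98.95, 97.5, 99.4 and 99.1, and this region includes the ChIP amplicon *NCIS2*. These regions lie 48.6 and 61.7 kb from a span end, far beyond the tRNA arrays.

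At *pma1*, which encodes the plasma membrane proton ATPase, the proteins differed by position. The promoter region (I, 3875981 to 3876540) had Hap2 peaks at the 99.8 and 99.3 percentile and Arp5 peaks at 26.0 and 42.1. The gene body (3871091 to 3875940) had Hap2 peaks at 95.9 and 93.2 and Arp5 peaks at 99.7 and 99.8. A second Hap2 region upstream of it, over SPNCRNA.93 (3876871 to 3877690), stood at 97.3 and 99.04, with an Arp5 peak in replicate 2 only, at 91.1.

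The region over *mug124* (II, 1686331 to 1687240) had Hap2 peaks at the 99.3 and 96.5 percentile and no Arp5 peak. Among the 10 highest flank regions of Hap2, this one alone met no peak of Arp5. The others of these 10 covered *ucp8* and the tRNA genes SPCTRNAVAL.11, SPCTRNAARG.11 and SPBTRNALYS.07. Those of Arp5 further covered the tRNA genes SPBTRNAGLY.08, SPBTRNAGLY.07, SPBTRNALYS.08 and SPBTRNAILE.05, *ucp8*, the ribosomal protein gene *rpl802* and *sua1*, and each of these had peaks in all 4 lists.

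Of the other ChIP amplicons in the flanks, *NCIS1*, *NCIS3* and *NCIS4* had no peak in any list. The NCIS amplicons mark islands of CENP-A outside the centromeres, at which the study reported Hap2-GFP. As for *cc2* and *dg*, absence of a called peak does not measure how much Hap2 was there. *NCIS1* lay 38 and 68 bp from Hap2 peaks over the valine tRNA gene SPATRNAVAL.04, which had no Arp5 peak. The nearest Arp5 peaks lay 1831 and 1671 bp from it.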

How the data were processed

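Each list was deposited for 1 ChIP sample, with replicates not pooled by the authors, and gives a start, end, summit and score per peak. The deposited score has no stated scale. Trimmomatic 0.36, BWA 0.7.17, MACS2 2.1.2 and deepTools (no version given) appear in the submitters' processing notes. Not given in the sources used here are the build, the threshold for peaks, how reads with several alignments were handled and which input served which list. Where reads of repeats are dropped or placed on one copy, peaks in repeats change. Depth is unknown, so no count of reads stands behind a value.

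Coordinates are those of the lists, counted from 1. Genes and sequences came from RefSeq ASM294v3, in which chromosome III is 2452883 bp long, the end of the last peak there in each list. Peaks on other sequences (6, 8, 1 and 0) were left out. Covered shares, overlaps and exact tests were computed with Python 3.11.15, numpy 2.4.6, pandas 2.3.3 and scipy 1.17.1, drawn with matplotlib 3.10.9 and tested on simulated data. Centromere parts were found with blastn 2.17.0 (at least 1000 bp and 90% identity, 15 kb beyond each span) and biopython 1.88. The rank of a reproducible region is the lower of its 2 list percentiles.

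The members and lists were chosen with earlier results of these data known. Named are the ChIP amplicons in spans or flanks, tRNA genes of the spans and the 10 kb beyond, the first 3 coding genes on each side, and for each protein the 5 highest regions of the spans and 10 of the flanks. *cbs2*, SPATRNAVAL.04, SPNCRNA.396, SPNCRNA.367 and the span sites without a tRNA gene were named after their values were seen. Alternatives were stricter and looser overlaps, the higher-scoring 50% of the peaks, other span and flank ends, unique positions, a replicate block and each list left out.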

Additional observations from a re-analysis of the deposited data

Results flagged for a closer look

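Flank coverage of the 2 proteins went opposite ways at 2 centromeres. At II both Hap2 lists lay above both Arp5 lists, with a difference of 3.02 percentage points, and at III both lay below, with a difference of -2.64. The difference between these differences was 5.66 percentage points, and an exact permutation test over the 4 lists gave p = 0.333, the smallest 2 lists against 2 allow. The contrast was flagged because the lists did not overlap at II or III and the signs were opposite. That choice fixes this p in advance, so the test adds nothing to it. At II Hap2 lay further above Arp5 from 25 to 50 kb (24.7 and 23.6% against 13.6 and 12.9%) and from 5 to 10 kb, and lay below it from 75 to 100 kb (7.25 and 8.47% against 11.7 and 12.5%).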

How the results depend on the processing

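The spans were less covered than the flanks under every alternative run, with span minus flank differences of -5.29 to -10.1 percentage points for Hap2 and -5.05 to -10.03 for Arp5. The Hap2 minus Arp5 difference of the spans (0.41) was 0.131 to 0.401 with the higher-scoring 50% of the peaks, span ends at the outermost outer repeat or unique positions. It ranged from -0.10 to 0.91 with single lists left out, and was -0.036 without peaks over tRNA genes, an alternative chosen after seeing the data. With same-numbered lists as a replicate block it was 0.41 (exact sign-flip permutation p = 1, n = 2 pairs). Differences between replicates correlated between the proteins at 0.45 over the 18 span sites and 0.18 over the 336 flank sites. In the flanks, lists overlapped those of the same number by 51.3 to 59.7% of their peaks and those of the other number by 44.1 to 52.5%. With 2 pairs this is a hint from the data, and the labels give no shared batch.

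Counts moved more. With the union of replicates, regions numbered 18 (Hap2) and 17 (Arp5) in spans and 238 and 253 in flanks, regions shared with the other protein 163 and 151, and coding genes 118 and 134. With the higher-scoring 50%, span regions were 7 for Hap2, flank regions 68 and 65, shared regions 42 and 43 and coding genes 32 and 46. With replicate peaks overlapping by 50% of each other, shared regions were 41 for each protein, Arp5 flank regions 73 and Arp5 coding genes 50. With flanks of 50 kb, flank regions were 67 and 61 and coding genes 29 and 36. At the gene start window Arp5 had 25 coding genes. With single lists, Hap2 had 13 to 17 span and 181 to 200 flank regions, 121 to 122 shared regions and 88 to 98 coding genes. Arp5 had 13 to 14 span and 195 to 199 flank regions and 115 to 120 shared regions. The cause was not tested where a value moved otherwise than by the number of lists or bases entering it.

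Of 85 alternative values 48 stayed within the limits set, 35 moved and 2 reversed. With 2 lists per protein no difference between lists could pass a test, and the unknown depth limits what an absent peak can show.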
